A study of Mus musculus with 8 samples.

Results

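The genes of the pre-B receptor and of the first steps of B cell development were followed through single-cell RNA sequencing of mouse bone marrow progenitors. They are Vpreb1, Igll1, Vpreb3, Cd79a, Cd79b and Ebf1. These are 6 of the 27998 genes in the deposited count table, and they were chosen by name after their spread over progenitor states and libraries had been seen in these data. Their levels by cell class and by library are therefore given as a description with no test, while the comparison of the housing groups was tested over all genes. The cells were KL cells, that is, bone marrow cells that lack the Lineage antigens CD3, CD4, CD8, CD45R, CD11b, TER119 and GR1 and carry CD117, the stem cell factor receptor encoded by Kit. The mice were female B6 animals of 3 to 4 months. SPF mice stayed under specific pathogen free conditions, and CVT mice were co-housed for a month with conventionally bred mice. Each group had 10 mice in 4 pools of 2 or 3 mice, so 8 pools were sequenced, with pools 1, 2, 7 and 8 SPF and pools 3, 4, 5 and 6 CVT. Each cell was put in a pool by the number at the end of its barcode. Levels are unique molecular identifier (UMI) counts of a gene per 1000000 UMIs of the same cells (CPM), and since the kit counts transcripts from their 3′ ends, a level does not scale with gene length.

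In developing B cells, a newly made heavy chain is first tested before any light chain exists. VpreB1 and λ5, the product of Igll1, together stand in for the light chain, and the heavy chain with this surrogate light chain and the Cd79a and Cd79b chains forms the pre-B receptor, whose signal allows the cell to divide and go on to light chain rearrangement. Ebf1 is a transcription factor that commits lymphoid progenitors to the B lineage and activates several of these genes, and Vpreb3 encodes a related protein that binds heavy chains inside the cell. Surrogate light chain genes are silenced after the pre-B stage, while Cd79a and Cd79b stay on as the signalling chains of the B cell receptor.

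The promoters of 4 of the 6 genes are shown because the genes are co-regulated in B cell precursors and the data below separate them into groups that moved together and apart. The stretches are the 250 bases before the RefSeq transcription start in GRCm38.p6, written 5′ to 3′ in the direction of the gene. Capitals mark matches, on either strand, to CCCNNGGG, a short form of the motif bound by EBF1, or to CAGGTG, a motif bound by E proteins such as E2A. Vpreb1 came from chr16:16869256-16869505 on the minus strand, Igll1 from chr16:16863986-16864235 on the minus strand, Vpreb3 from chr10:75948050-75948299 on the plus strand and Cd79a from chr7:24897247-24897496 on the plus strand.
Vpreb1: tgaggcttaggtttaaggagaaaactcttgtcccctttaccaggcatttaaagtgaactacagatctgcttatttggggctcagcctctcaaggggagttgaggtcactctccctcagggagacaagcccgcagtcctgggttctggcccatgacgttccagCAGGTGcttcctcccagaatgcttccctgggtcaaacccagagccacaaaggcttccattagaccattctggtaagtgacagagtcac
Igll1: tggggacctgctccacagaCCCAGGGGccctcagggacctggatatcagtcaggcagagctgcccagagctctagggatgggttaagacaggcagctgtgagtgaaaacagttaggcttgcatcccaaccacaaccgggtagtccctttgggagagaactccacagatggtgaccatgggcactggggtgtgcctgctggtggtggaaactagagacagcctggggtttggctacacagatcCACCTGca
Vpreb3: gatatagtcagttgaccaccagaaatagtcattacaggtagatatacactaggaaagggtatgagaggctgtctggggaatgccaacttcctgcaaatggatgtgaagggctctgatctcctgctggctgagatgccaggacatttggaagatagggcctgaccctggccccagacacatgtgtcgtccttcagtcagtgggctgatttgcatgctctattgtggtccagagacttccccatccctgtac
Cd79a: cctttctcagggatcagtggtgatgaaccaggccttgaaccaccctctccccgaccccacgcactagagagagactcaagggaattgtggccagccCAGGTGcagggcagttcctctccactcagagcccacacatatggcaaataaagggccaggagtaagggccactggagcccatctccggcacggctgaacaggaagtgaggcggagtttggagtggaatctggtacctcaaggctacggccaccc

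The Vpreb1 window held CAGGTG 88 bases before the start. The Igll1 window held both motifs, CCCNNGGG 231 bases and CAGGTG 8 bases before the start, the latter on the other strand. The Cd79a window held CAGGTG 154 bases before the start, and neither motif was found in the Vpreb3 window or in the windows of Ebf1. Over 32851 promoter windows of the same length, 11.8% held CCCNNGGG and 17.2% held CAGGTG, so a match describes these letters and marks no proven site. Of the 6 genes, 5 had an entry, and Cd79b is named only.

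In the GRCm38 annotation (GENCODE M21), which need not be the build behind the deposited counts, Igll1 (chr16:16860671-16863985) and Vpreb1 (chr16:16868403-16870843) are neighbours on the minus strand of chromosome 16 with 4417 bases between them. Vpreb1 overlaps Top3b, a topoisomerase gene on the opposite strand. Vpreb3 (chr10:75943057-75949657), Cd79a (chr7:24897381-24902197), Cd79b (chr11:106311341-106314762) and Ebf1 (chr11:44617317-45008091) lie apart from each other, Cd79b on the minus strand and the other three on the plus strand. The promoter windows of Vpreb1, Vpreb3 and Ebf1 lie inside these gene spans, and that of Cd79a lies partly inside. The motif distances above therefore hold for the RefSeq starts only. Vpreb1 has a near copy, Vpreb2 (chr16:17980428-17981273). The last 300 bases of 3 of the 4 annotated Vpreb1 transcripts shared none of 203 windows of 98 bases with Vpreb2, but 1 transcript shared 99 windows (48.8%), so the split of reads between the copies is uncertain for that transcript.

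The table held 29891 cells, 12331 from SPF and 17560 from CVT mice, with 2759 to 49732 UMIs per cell and 19041749 to 59812346 UMIs per pool. Of 29365 distinct cell barcodes, 522 occurred in more than 1 pool. Pools 1 to 4 and pools 5 to 8 stood apart in many genes. The labels name no batch, and each set holds 2 SPF and 2 CVT pools. Hbb-bs, a haemoglobin gene, was at 40.1 to 58.4 CPM in pools 1 to 4 and at 648 to 1850 CPM in pools 5 to 8 over the cells outside the B-lineage-like class described next.

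Clustering without the 6 genes gave 32 clusters, and 1 of them, with 162 cells (0.542%), was B-lineage-like. All 13 listed B cell markers in the table were higher inside it than outside. The same list gave the cluster its name, from 10 markers among its top genes, so this is no separate support. Its leading genes were Jchain, Mzb1, Myl4, Ly6d, Cd74, Pou2af1, Fcrla and Blnk. The gate should favour cells with CD117 and remove cells with CD45R, an antigen of most B lineage cells. Kit was seen in 19 of the 162 cells (11.7%) and in 51.2% of the cells outside, with median depths of 6701.5 and 8981 UMIs. Of the 162 cells, 8 had a barcode that was also found in another pool. The lineage names below are rebuilt from marker genes and carry "-like" for that reason.

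The B-lineage-like cells held most UMIs of 5 of the 6 genes, and Cd79b was the exception. They held 85.7% of 3395 Vpreb3 UMIs, 82.9% of 2944 Ebf1 UMIs, 81.9% of 2082 Cd79a UMIs, 80.7% of 1375 Igll1 UMIs and 56.0% of 2592 Vpreb1 UMIs. Of 10982 Cd79b UMIs they held 9.66%, with an exact binomial 95% interval of 9.11 to 10.2%, which covers counting error only. For every one of the 6 genes the pool range in the B-lineage-like class lay above the range of the class with the next level and did not overlap it.

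**Figure D1:**
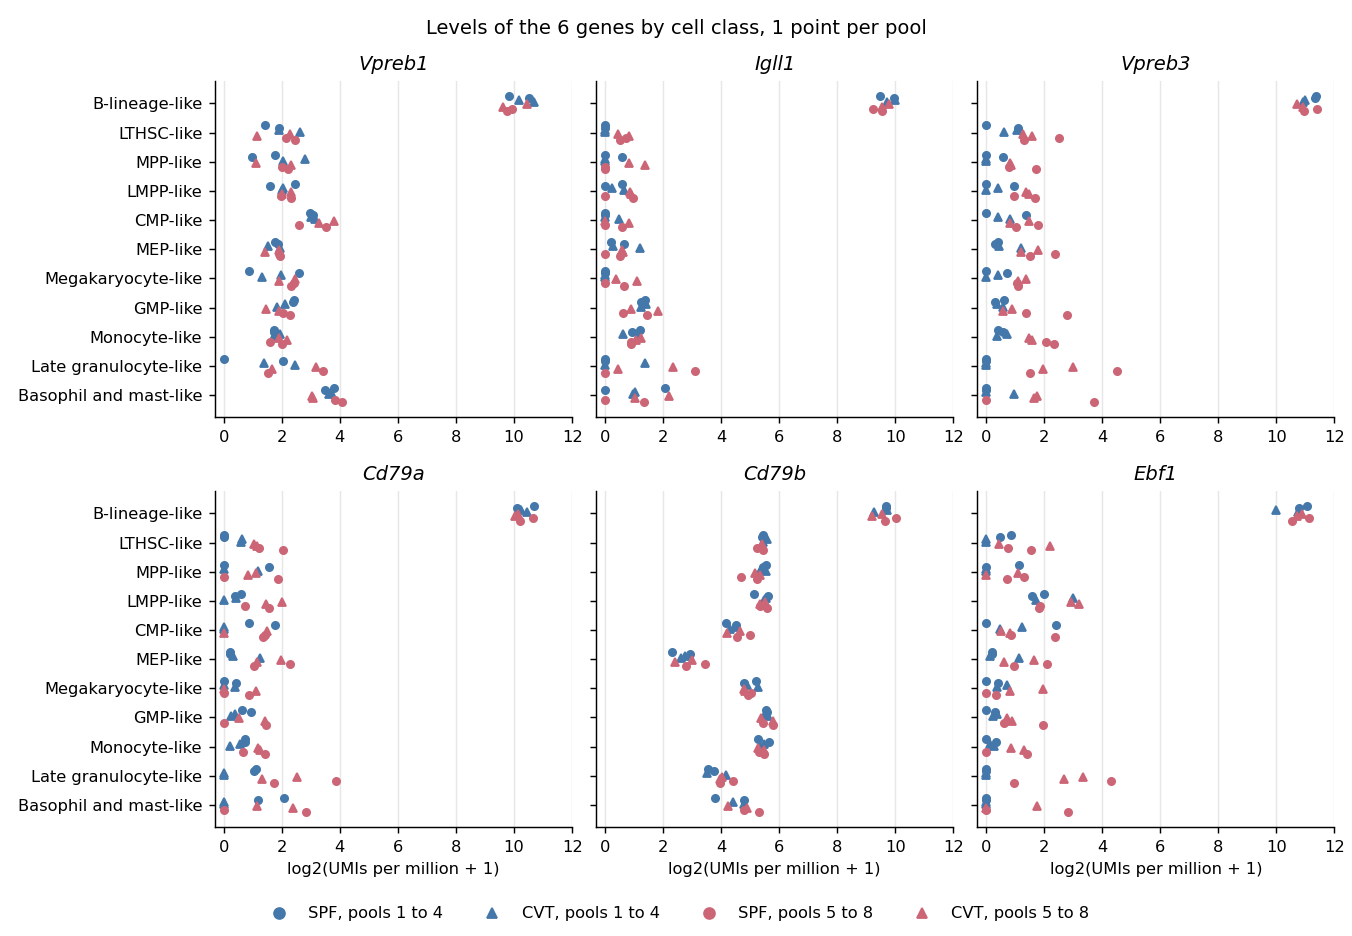
Level of each of the 6 genes in each cell class, as log2(CPM + 1), with 1 point per pool, circles for SPF and triangles for CVT, blue for pools 1 to 4 and red for pools 5 to 8; the small dendritic-like and T and NK-like classes are left out. Every pool's point of the B-lineage-like class lies to the right of all other classes, and Cd79b is the gene with a level well above 0 in all classes shown.

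Among the surrogate light chain genes, Vpreb1 in B-lineage-like cells was at 899, 1455, 1143, 1626, 1380, 779, 979 and 862 CPM in pools 1 to 8. The pools lay within about the same range in both sets, with pool 4 the highest and pool 6 the lowest. Igll1 was at 716, 997, 1016, 840, 892, 745, 599 and 748 CPM in the same order. Its highest value was in pool 3 and its lowest in pool 7. Vpreb3 was the most abundant of the 6 genes over all these cells, at 2643, 2570, 2006, 1920, 1677, 1920, 2693 and 1998 CPM. A UMI of Vpreb1 was seen in 86 cells, of Igll1 in 85 cells and of Vpreb3 in 145 of the 162 cells.

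The signalling chains were found in nearly every B-lineage-like cell. Cd79a had a UMI in 162 and Cd79b in 160 of the 162 cells, and with each cell thinned to 2759 UMIs the shares were 92.6% and 81.5%. Cd79a was at 1633, 1103, 1219, 1386, 1134, 1054, 1598 and 1167 CPM in pools 1 to 8. Cd79b was lower, at 826, 821, 838, 613, 752, 583, 1034 and 798 CPM. Ebf1, the lineage factor, was seen in 152 cells (thinned, 88.3%) and was at 2129, 1737, 1016, 1733, 1890, 1664, 2251 and 1472 CPM. For none of these 3 genes did pools 1 to 4 and pools 5 to 8 separate.

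For comparison with the cells outside, the MEP-like class (megakaryocyte-erythrocyte progenitors, 5512 cells, median 14192 UMIs) should lack the B cell program. A UMI of Vpreb1 was seen in 3.48% of MEP-like cells, of Vpreb3 in 1.29%, of Cd79a in 1.05%, of Ebf1 in 0.780%, of Igll1 in 0.562% and of Cd79b in 8.93%. In the B-lineage-like cells, at less than the depth of the MEP-like cells, the shares were between 52.5% for Igll1 and 100% for Cd79a.

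Within the 162 cells the 6 genes fell into groups. All 6 were seen in 79 cells, and Vpreb3, Cd79a, Cd79b and Ebf1 without Vpreb1 and Igll1 in 55 cells. Vpreb1 and Igll1, the neighbouring genes that make the surrogate light chain, were seen together in 80 cells, both missing in 71 cells and alone in 11 cells. Over the 162 cells, with the 71 that lacked both included, Spearman's rho of their UMIs divided by the cell's total was 0.94. It was 0.81 for the counts with each cell thinned to 2759 UMIs. Vpreb3 and Ebf1 had a rho of 0.68 (thinned, 0.61), and Vpreb1 and Cd79b a rho of −0.29 (thinned, −0.23). The cells share libraries and differ in depth, so these are descriptions.

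**Figure D2:**
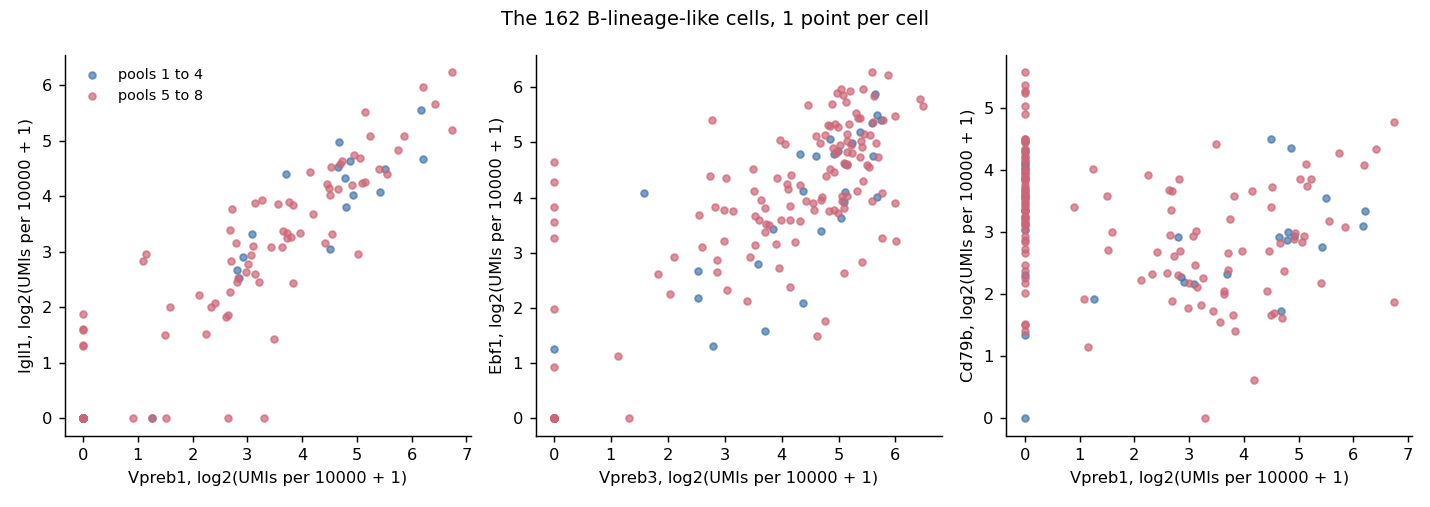
UMIs per 10000 UMIs of the cell, as log2(value + 1), in each of the 162 B-lineage-like cells, for Igll1 against Vpreb1, Ebf1 against Vpreb3 and Cd79b against Vpreb1, with 1 point per cell, blue for pools 1 to 4 and red for pools 5 to 8. Igll1 and Vpreb1 rise together or are both at 0 (71 cells), and the cells without Vpreb1 reach the highest Cd79b levels.

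The cells with and without the surrogate light chain genes differed in other genes of B cell maturation. The 80 cells with both genes had Dntt, the terminal transferase that adds bases at heavy chain junctions, at 418 CPM, and the 71 cells with neither had it at 11.7 CPM. Vpreb2, the near copy of Vpreb1, was at 91.9 and 2.34 CPM. In the other direction, Cd74, the invariant chain of MHC class II, was at 23.0 CPM in cells with both and at 3517 CPM in cells with neither. H2-Aa, an MHC class II chain, was at 19.7 and 459 CPM, Ly6d, an early B lineage surface antigen, at 83.1 and 1336 CPM, and Ms4a1, which encodes CD20, was seen in 1 cell with both and in 17 cells with neither. Cd79b itself was at 555 CPM in cells with both and 1147 CPM in cells with neither, a ratio of 0.484, while Vpreb3 (2017 and 2033 CPM), Cd79a (1137 and 1362 CPM) and Ebf1 (1791 and 1593 CPM) were nearer to each other. Top2a, a gene of dividing cells, was at 850 and 934 CPM. The cells with both were deeper, with a median of 9256 UMIs against 5195, and their part in these contrasts was not tested.

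A small group of the B-lineage-like cells had very high Jchain, the joining chain of secreted antibody. There were 10 such cells with 100 or more Jchain UMIs, 9 of them in pools 5 to 8, and they held 10167 Jchain UMIs, or 89.8% of all. All 10 had Cd79a and Cd79b, 1 had Vpreb3, 1 had Igll1, 1 had Ebf1 and 0 had Vpreb1. All but the 1 with Igll1 were therefore among the 71 cells with neither Vpreb1 nor Igll1. Their part in the contrasts of cells with both and with neither was not tested.

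The number of B-lineage-like cells differed between the sets of pools. Pools 1 to 8 held 7, 10, 4, 8, 30, 40, 23 and 40 such cells. As a share of the pool's cells these were 0.371, 0.260, 0.0826 and 0.192% in pools 1 to 4 and 0.691, 0.953, 1.11 and 0.882% in pools 5 to 8, so the sets did not overlap. In pool 3, with the fewest, the exact 95% interval was 0.0225 to 0.211%. The share of late granulocyte-like cells ran from 2.23 to 6.30% in pools 1 to 4 and from 4.96 to 12.2% in pools 5 to 8, and that of T and NK-like cells from 0.0413 to 0.212% and from 0.154 to 0.727%. The ranges overlapped for both. These are other cells that the Lineage gate removes, and their part in the result was not tested. A gap between the sets was not particular to the B-lineage-like class. MPP-like cells (multipotent progenitors) ran from 3.14 to 5.14% in pools 1 to 4 and from 6.91 to 7.32% in pools 5 to 8. MEP-like cells were lower in pools 5 to 8, at 14.2 to 17.6% against 18.8 to 23.3%. The ranges of the other named classes overlapped.

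**Figure D3:**
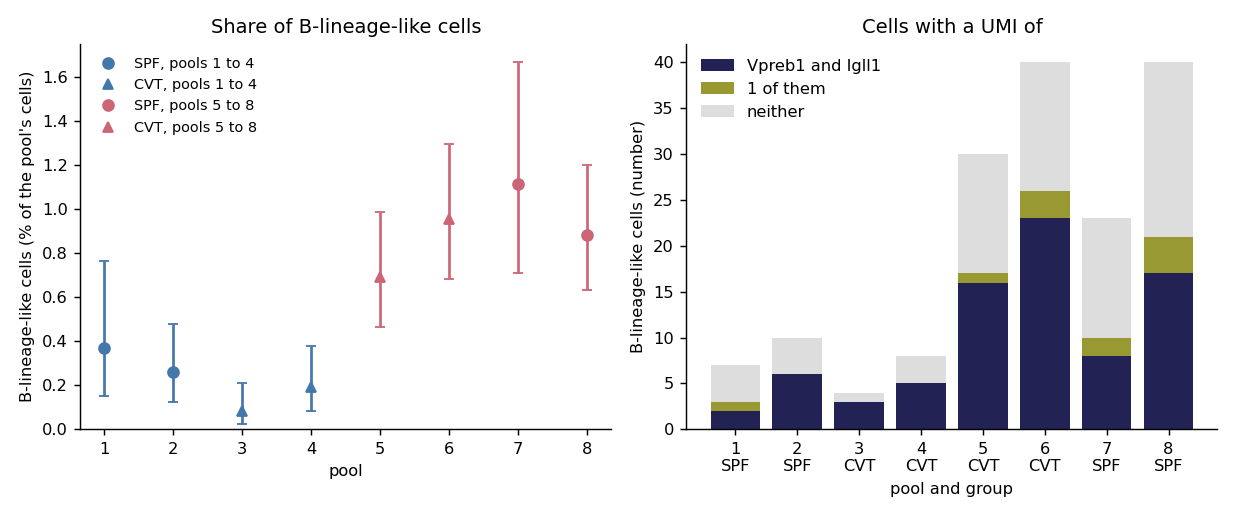
Left, share of B-lineage-like cells in each pool, in percent of the pool's cells, with exact 95% binomial intervals. Right, number of B-lineage-like cells per pool with a UMI of Vpreb1 and Igll1, of 1 of them or of neither. Pools 1 to 4 lie at or below 0.371% and pools 5 to 8 at or above 0.691%, and each pool holds cells with and without both genes.

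The share was 0.480 ± 0.412% in CVT pools and 0.657 ± 0.408% in SPF pools (mean ± SD, n = 4 each). The difference of −0.177 percentage points gave a two-sided exact permutation p of 0.543 over 70 regroupings, of which the smallest possible p is 0.0286. Within pools 1 to 4 the difference was −0.178 and the groups did not overlap, and within pools 5 to 8 it was −0.176 and they did. Each set has 2 pools per group, and pools 1 to 4 held only 4 to 10 B-lineage-like cells each. The differences within the sets are therefore a description and were not tested.

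In the sums over a pool's KL cells, 5 of the 6 genes were higher in every pool of 5 to 8 than in every pool of 1 to 4, where 7.97% of 13092 genes did so. In such sums, fewer cells of a type and less RNA per cell cannot be told apart. Vpreb1 was at 5.72, 6.07, 3.86, 5.17, 11.8, 9.96, 11.2 and 10.6 CPM in pools 1 to 8, and pools 5 to 8 held 2.15 times the level of pools 1 to 4. Igll1 was at 2.57, 2.45, 1.22, 2.06, 5.99, 7.87, 5.40 and 6.37 CPM, a ratio of 3.39. Vpreb3 was at 7.77, 5.63, 1.77, 3.04, 11.6, 19, 24.7 and 18 CPM, a ratio of 4.63. In each, pool 3, which had the fewest B-lineage-like cells, was the lowest.

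Cd79a was at 5.09, 2.78, 1.11, 2.31, 8.31, 11, 14.7 and 10.7 CPM, a ratio of 4.56. Ebf1 was at 6.56, 4.17, 1.60, 2.88, 13.1, 17.6, 19.9 and 12.9 CPM, a ratio of 4.80. Cd79b was at 27.1, 33.0, 28.7, 30.04, 32.3, 34.9, 38.3 and 38.5 CPM, a ratio of 1.19, and was the gene whose sets overlapped. Most of the level of the other 5 genes in pools 5 to 8 came from the B-lineage-like cells, which gave 61.2 to 71.4% of the Vpreb1 UMIs and 80.8 to 86.2% of the Ebf1 UMIs of those pools.

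**Figure D4:**
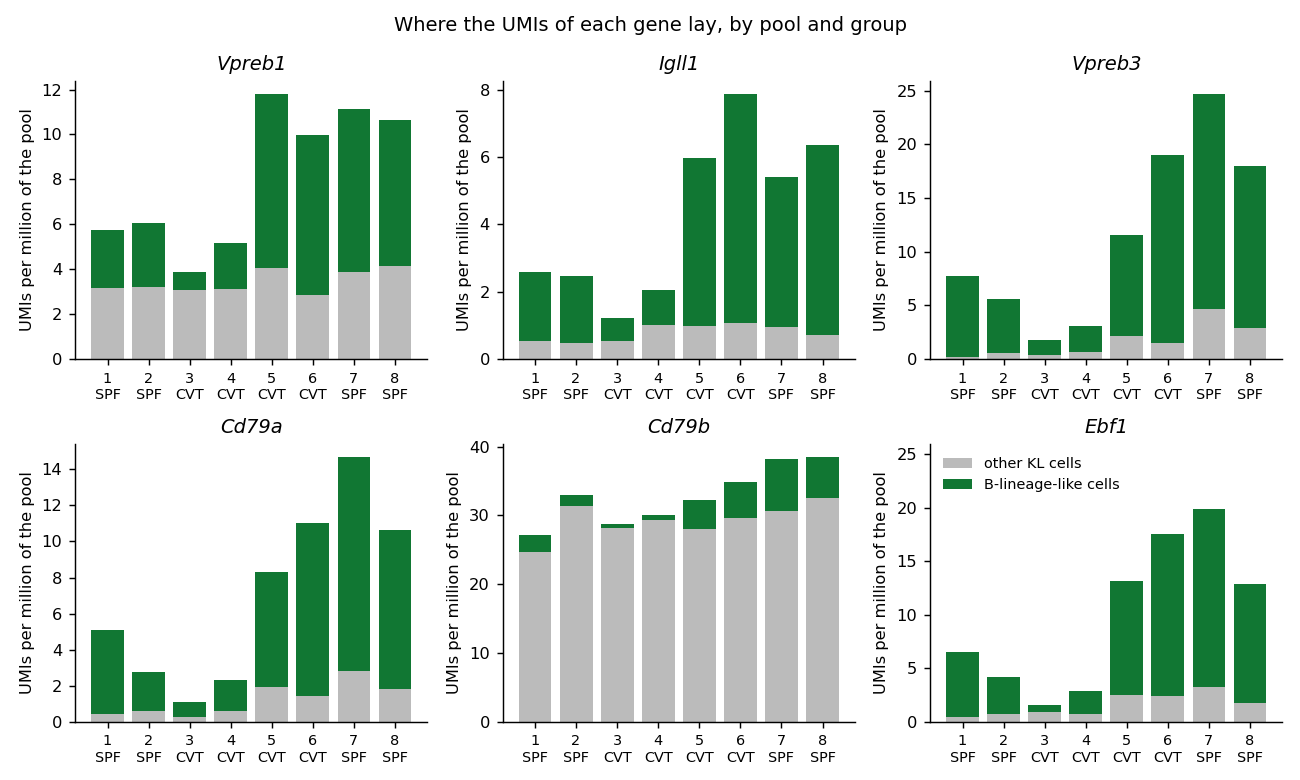
Level of each of the 6 genes over all KL cells of each pool, in CPM, split into the part from B-lineage-like cells and the part from all other cells. The B-lineage-like part makes up most of the bar for 5 genes in pools 5 to 8, and the other cells make up most of it for Cd79b in every pool.

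Outside the B-lineage-like class the level of the 6 genes was low, and 3 of them still stood higher in every pool of 5 to 8, where 7.76% of 13067 genes did so. Vpreb3 was at 0.211, 0.557, 0.400, 0.636, 2.16, 1.52, 4.73 and 2.93 CPM in pools 1 to 8, a ratio of 5.13 between the sets. Cd79a was at 0.421, 0.603, 0.278, 0.569, 1.94, 1.43, 2.85 and 1.86 CPM, a ratio of 4.02, or 2.01 as a log2 value, which was 2.94 with each cell thinned to 2759 UMIs. Ebf1 was at 0.474, 0.742, 0.904, 0.703, 2.54, 2.44, 3.25 and 1.80 CPM, a ratio of 3.14. The sets did not overlap for these 3 genes.

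Vpreb1 was at 3.16, 3.20, 3.08, 3.13, 4.06, 2.87, 3.92 and 4.16 CPM outside the class, Igll1 at 0.527, 0.487, 0.521, 1.003, 0.984, 1.09, 0.966 and 0.727 CPM and Cd79b at 24.8, 31.4, 28.2, 29.3, 28.2, 29.9, 30.8 and 32.7 CPM. The sets overlapped for these genes. Of the cells outside with a UMI of a given gene, 96.0% had a single UMI for Vpreb1, 94.4% for Vpreb3, 96.2% for Igll1, 90.3% for Cd79a and 77.1% for Ebf1.

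Abundant genes of other cell types, whose free RNA can enter droplets, were higher in pools 5 to 8 as well. Over the cells outside the class, Hbb-bs was 24.0 times and S100a8, a granulocyte gene, 2.92 times as high in pools 5 to 8 as in pools 1 to 4, and S100a8 overlapped between the sets. Hba-a1, another haemoglobin gene, was 12.9 times as high, while Elane, a granule gene of GMP, had a ratio of 0.918. The cells outside include those that make these transcripts. A cluster led by Hba-a1 and Hbb-bs held 4, 4, 8 and 7 cells in pools 1 to 4 and 23, 38, 19 and 34 in pools 5 to 8. These ratios therefore cannot tell the number of such cells from free RNA. Inside the B-lineage-like cells the ratios of Hbb-bs and S100a8 were 9.75 and 6.42. The part of free RNA in the levels of the 6 genes outside the class was not tested. The proportions among Vpreb1, Vpreb3, Igll1, Cd79a and Ebf1 are given for the inside and for MEP-like cells as an example of the outside. Vpreb1 made up 14.4% of the UMIs of these 5 genes in B-lineage-like cells of pools 5 to 8 and 36.6% in MEP-like cells of the same pools, leaving out cells with 3 or more of the 5 genes, and 17.7% and 69.7% in pools 1 to 4. Vpreb3 made up 30.2% and 22.6% in pools 5 to 8, and 30.5% and 8.39% in pools 1 to 4. Cd79a was nearer in pools 5 to 8, at 17.8% inside and 20.6% in MEP-like cells. Ebf1 was at 26.1% and 13.6% in those pools, and Igll1 at 11.5% and 6.58%. The share of Vpreb3 varied over the classes outside. In pools 5 to 8 it was 10.2% in CMP-like, 11.8% in LMPP-like, 11.9% in GMP-like, 22.9% in late granulocyte-like and 29.1% in monocyte-like cells.

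Some of the outside UMIs sat in few cells. There were 19 cells outside the class with 3 or more of Vpreb1, Vpreb3, Igll1, Cd79a and Ebf1. Of these, 2 lay in pools 1 to 4 and 17 in pools 5 to 8. None was called a doublet, but the caller marked 92 of 29891 cells (0.308%) and did not work. That call therefore cannot tell whether they were doublets. The 19 cells held 36.2% of the outside Vpreb3 UMIs, 31.3% of Ebf1, 28.7% of Cd79a, 20% of Igll1 and 6.13% of Vpreb1. An MEP-like cell of pool 4 with 42214 UMIs, the deepest of them, held 28 Vpreb1, 24 Vpreb3, 23 Igll1, 21 Cd79a, 5 Cd79b and 21 Ebf1 UMIs. Without the 19 cells the ratio between the sets was 4.61 for Vpreb3, 4.28 for Cd79a and 2.65 for Ebf1, and the sets still did not overlap.

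Cd79b was spread over the progenitors. The small dendritic-like and T and NK-like classes had the highest levels outside, at 72.7 and 59.6 CPM, but on 34 and 18 UMIs with pools from 0 up. Among the larger classes it was at 47.8 CPM in GMP-like cells (pools 40.9 to 54.5), 44.1 in LMPP-like, 42.3 in monocyte-like, 42.1 in LTHSC-like and 38.3 in MPP-like cells, whose pool ranges overlapped from each to the next. It was at 30.1 CPM in megakaryocyte-like, 26.7 in basophil and mast-like and 21.7 in CMP-like cells. The lowest levels were 15 CPM (10.5 to 20.5) in late granulocyte-like and 5.79 CPM (4.00 to 9.95) in MEP-like cells, and these ranges did not overlap. Thinned to 2759 UMIs, 12.3% of GMP-like, 11.8% of LMPP-like and 2.01% of MEP-like cells had a Cd79b UMI. The genes whose log level over the 32 clusters was most like Cd79b were Cerk (Pearson's r = 0.86), Bcr (0.84) and Fam43a (0.83).

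Among the larger classes outside, Vpreb1 was highest in basophil and mast-like cells, at 11.3 CPM (pools 7.17 to 16.0), and CMP-like cells, at 8.46 CPM (4.97 to 12.9), against 2.43 CPM (1.67 to 2.88) in MEP-like cells. Thinned, 3.04% of basophil and mast-like, 2.51% of CMP-like and 0.798% of MEP-like cells had a Vpreb1 UMI. Top3b, which overlaps Vpreb1 on the other strand, was also highest there, at 64.6 CPM in basophil and mast-like, 64.0 in CMP-like and 32.7 in MEP-like cells. It was at 44.4 CPM in the B-lineage-like cells, where Vpreb1 was at 1022 CPM. The part of reads from Top3b in the outside Vpreb1 level was not tested. Igll1 was at 1.57 CPM in GMP-like and 0.191 CPM in CMP-like cells, and thinned, 0.439% of GMP-like and 0.145% of MEP-like cells had a UMI. It was at 2.10 CPM in late granulocyte-like cells, but at 0.512 CPM in pools 1 to 4 and 0.213 CPM in pools 5 to 8 without the cells that held 3 or more of the 5 genes.

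Ebf1 was at 5.78 CPM in late granulocyte-like cells (pools 0 to 18.9) and at 4.43 CPM (2.02 to 8.14) in LMPP-like cells, the lymphoid multipotent progenitors. Without the cells that held 3 or more of the 5 genes, it was at 0 and 0.960 CPM in late granulocyte-like cells of pools 1 to 4 and pools 5 to 8, and at 3.66 and 4.89 CPM in LMPP-like cells. With 105 of 4170 cells, 2.52% had a UMI at a median depth of 8480.5, against 0.780% of MEP-like cells at 14192. Thinned, the shares were 0.887% and 0.181%. Leaving out the cells with 3 or more of the 5 genes, 2 or more Ebf1 UMIs were seen in 37 of 4168 LMPP-like and 0 of 5509 MEP-like cells, and 0 allows a share of cells with such counts of up to 0.0545% from counting error alone, with the MEP-like cells the deeper of the 2 classes. The LMPP-like cells formed 3 clusters, with Ebf1 at 6.02, 4.43 and 1.22 CPM.

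The 103 LMPP-like cells with Ebf1 and the 4065 without it are compared here as a description, since cells of the same pools are not replicates. Genes of lymphoid priming had higher shares in the cells with Ebf1. Il7r, the receptor for the growth factor of early lymphocytes, was seen in 60.2% and 7.23% of them. Flt3, a receptor of lymphoid progenitors, was seen in 96.1% and 70.04%, Dntt in 87.4% and 62.2%, and the recombinase genes Rag1 in 13.6% and 0.787% and Rag2 in 20.4% and 5.81%. Vpreb1 was seen in 2.91% and 2.76% and Cd79b in 35.9% and 33.5%. The median depths were 9250 and 8435 UMIs.

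**Figure D5:**
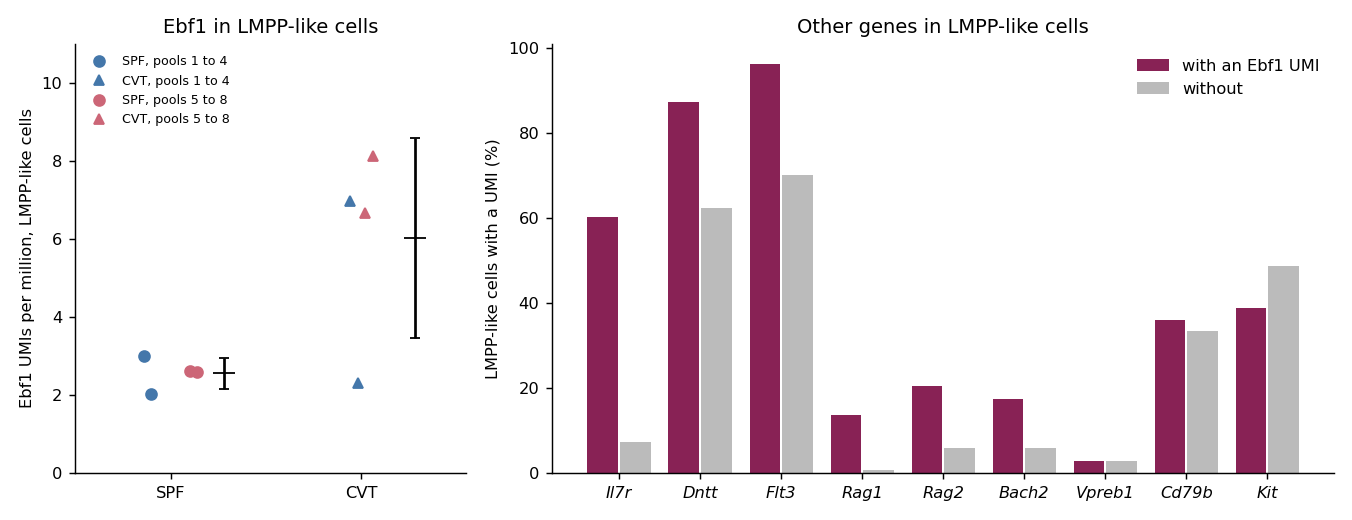
Left, Ebf1 in LMPP-like cells of each pool in CPM, by housing group, with pools 1 to 4 in blue, pools 5 to 8 in red and the mean ± SD. Right, share of LMPP-like cells with a UMI of each gene, for cells with and without Ebf1, in percent. CVT pools run from 2.29 to 8.14 and SPF pools from 2.02 to 3.00, and Il7r shows the widest gap between the cells with and without Ebf1.

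Over the clusters, the genes most like Vpreb3 included Pax5 (Pearson's r = 0.94) and Ddc (0.91), and those most like Cd79a included Pax5 (0.94) and Akap12 (0.90). Ebf1 was most like Akap12 (0.91) and Pax5 (0.90). Pax5 keeps the B lineage identity. For Vpreb1 and Igll1 the most similar genes had few UMIs, such as Gm15410 with 7 and Cacna1s with 26. Without the B-lineage-like cluster, r fell from 0.87 to 0.38 for Vpreb1 and Gm15410, from 0.95 to 0.45 for Igll1 and Cacna1s and from 0.91 to 0.67 for Ebf1 and Akap12. It was 0.82 for Vpreb3 and Pax5, 0.81 for Cd79a and Pax5 and 0.85 for Cd79b and Cerk.

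The comparison of CVT with SPF mice asked whether a month of co-housing changed these genes. In all KL cells, edgeR's quasi-likelihood test called 0 of the 6 genes, and at the same adjusted p threshold of 0.05 it called 0 of all 13092 tested (0%). At an unadjusted p under 0.05 it found 921 genes (7.03%), none of them among the 6, and DESeq2 called 15 genes, none of the 6. Vpreb3 was at 8.85 ± 8.05 CPM in CVT and 14 ± 8.92 CPM in SPF pools (SD, n = 4), a log2 fold change of −0.64 with a standard error of 0.70 and an edgeR adjusted p of 0.869. Leaving out 1 pool moved it between −1.35 (without CVT pool 6) and −0.23 (without SPF pool 7). Cd79a had a log2 fold change of −0.51 ± 0.69 (SE), Ebf1 of −0.27 ± 0.72, Vpreb1 of −0.10 ± 0.36, Cd79b of −0.07 ± 0.12 and Igll1 of 0.04 ± 0.55, with edgeR adjusted p from 0.893 to 0.993. The standard errors of 0.36 to 0.72 for the genes other than Cd79b set how small a change these pools could show.

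With the pool set as a term in the same edgeR fit, 4 of 13092 genes were called, and 0 of the 6. The log2 fold changes were then −0.80 ± 0.24 (SE) for Vpreb3, with an unadjusted p of 0.00807 and an edgeR adjusted p of 0.248, −0.61 ± 0.25 for Cd79a (edgeR adjusted p = 0.339) and −0.46 ± 0.26 for Ebf1. In pools 1 to 4, the SPF pools had Vpreb3 at 7.77 and 5.63 CPM and the CVT pools at 1.77 and 3.04 CPM. In pools 5 to 8, SPF pools had it at 24.7 and 18 CPM and CVT pools at 11.6 and 19 CPM. The change of the CVT effect between the sets of pools passed edgeR's threshold for 0 of 13092 genes and for 0 of the 6, with 1188 genes at an unadjusted p under 0.05 and adjusted p from 0.534 to 0.649 for the 6. Ebf1 (unadjusted p = 0.0385 by edgeR) and Igll1 (0.0472) were among the 1188.

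Within the B-lineage-like cells, where 1691 genes were tested, edgeR called 0 genes (0%) and DESeq2 0, with 79 genes (4.67%) at an unadjusted p under 0.05. Vpreb3 was at 1881 ± 142 CPM in CVT and 2476 ± 323 CPM in SPF pools (SD, n = 4), with a log2 fold change of −0.39 ± 0.12 (SE), an unadjusted p of 0.00577 and an edgeR adjusted p of 0.61. CVT pools ran from 1677 to 2006 CPM and SPF pools from 1998 to 2693 CPM, so the groups overlapped by a narrow margin. Cd79b had a log2 fold change of −0.35 ± 0.15, with an unadjusted p of 0.0402 and an edgeR adjusted p of 0.970. The other 4 genes had log2 fold changes of −0.21 to 0.23. Vpreb1 and Igll1 were seen together in 47 of 82 CVT and 33 of 80 SPF cells, a count of cells that are not replicates. By pool the share was 53.3 to 75.0% in CVT and 28.6 to 60.0% in SPF pools. These ranges overlapped, on 4 to 40 cells per pool, and the difference was not tested.

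In the cells outside the class, edgeR called 0 of 13067 genes (0%) and 0 of the 6, with 928 genes (7.1%) at an unadjusted p under 0.05 and 17 called by DESeq2. In LTHSC-like, LMPP-like, GMP-like and MEP-like cells, edgeR called 0 of 9546, 10601, 9796 and 10581 genes (0% each), and 1, 3, 2 and 5 of the 6 genes had the counts to be tested. At an unadjusted p under 0.05 there were 507 (5.31%), 552 (5.21%), 526 (5.37%) and 531 (5.02%) genes, and DESeq2 called 0, 1, 0 and 1. Among the members tested in these 4 classes, Ebf1 in LMPP-like cells had the smallest p. It was at 3.00, 2.02, 2.60 and 2.59 CPM in SPF pools 1, 2, 7 and 8 and at 6.97, 2.29, 6.68 and 8.14 CPM in CVT pools 3 to 6. CVT pool 4 lay among the SPF pools and the other 3 above them. The log2 fold change was 1.34 with a standard error of 0.33, an unadjusted p of 0.000826 and an edgeR adjusted p of 0.83. Without CVT pool 4 the log2 fold change was 1.60 and the edgeR adjusted p 0.0307, and Ebf1 was the 1 gene called of 10795 (0.00926%). Without the filter on low counts its edgeR adjusted p was 0.00743, in a fit that called 26 of 16322 genes (0.159%). The same change of filter in GMP-like cells called 30 of 15664 genes (0.192%), Vpreb3 among them with a log2 fold change of −2.28, and 26 of the 51 Vpreb3 UMIs of that class lay in 1 cell of SPF pool 8.

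Other genes of the pathway, in lists chosen with earlier results known, gave no call in KL cells by edgeR either. Of the early B regulators 0 of 13 tested were called in either direction, of the recombination genes 0 of 5, of the pre-B receptor signalling genes 0 of 11, of the B surface genes 0 of 9 and of the immunoglobulin chains 0 of 2, against 0% of all genes. The smallest p in each list belonged to Spib, a transcription factor of B and dendritic cells (log2 fold change −0.98, SE 0.68), Dclre1c, which opens hairpins in recombination (−0.15, SE 0.10), Ptpn6, a phosphatase that dampens receptor signals (−0.13, SE 0.06), Cd24a, a surface antigen of immature cells (0.19, SE 0.07), and Jchain (1.05, SE 1.64). The next in each list were Lef1 (−0.43), Rag2 (−0.24), Plcg2 (−0.31), Il7r (−0.43) and Vpreb2 (0.03). The edgeR adjusted p of Ptpn6 was 0.699 and that of Cd24a 0.676. The medians of the lists were −0.04, −0.09, −0.10, −0.43 and 0.54, beside −0.01 for all genes tested. In the B-lineage-like cells against the rest, 11 of 13, 6 of 6, 10 of 11, 10 of 10 and 2 of 2 listed genes in the table were higher, which the clustering itself used. Of the 8 listed immunoglobulin chain genes, 2 were in the count table, Vpreb2 and Jchain. The constant chains Ighm, Ighd, Igkc and Iglc1 to Iglc3 had no row there under these names and so were not analysed here.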

How the data were processed

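Bone marrow KL cells of 8 pools were profiled with the 10x Genomics 3′ v2 kit. The submitters' processing notes name Cell Ranger and mm9, with no version. The deposited values were raw UMI counts per gene and cell, and no other normalization by the authors was used. A cell's pool was taken from the number in its name. Cells were clustered (scanpy 1.11.5, leidenalg 0.10.2) on 1000 variable genes without the 6 members, with 30 components, 30 neighbours and resolution 2, and named from marker genes. Counts were summed per pool and class and tested between CVT and SPF (4 pools each) with edgeR 4.0.16 in R 4.3.3, over all genes, with Benjamini-Hochberg adjustment and genes low in counts left out. DESeq2 1.42.0 was an alternative. The scripts were tested on simulated data. A doublet caller marked 92 of 29891 cells (0.308%) and so did not work, and removing the 5% of cells with the highest score was added after seeing the data. The members and gene lists were chosen with earlier results of these data known. Genes named beyond the members were up to 3 genes most like each member over clusters (a gene that falls under this rule, and an alternative that used it, are not reported here) and the 2 with the smallest p in each list, or were chosen after their values were seen. Labels name no separate cultures beyond the pools, so p-values measure the spread between pools of mice. Thinning drew 2759 UMIs per cell.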

Additional observations from a re-analysis of the deposited data

Results flagged for a closer look

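Among 58 groups of 4 pools tested for a sample far from the rest, 2 stood out, and chance gives about 1 in 20. Cd79b in B-lineage-like cells of SPF mice was highest in pool 7, at 1034 CPM, while the other 3 SPF pools were between 798 and 826 CPM. Vpreb1 in LMPP-like cells of CVT mice was highest in pool 5, at 4.05 CPM, while the others were between 3.01 and 3.14 CPM.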

How the results depend on the processing

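No paired analysis was possible because the CVT and SPF pools share no replicate numbers. The fit with the set of pools as a term called none of the 6 genes in any population tested, and neither did RLE size factors or DESeq2. The filters on cells, which were run on all KL cells, called none there. Without the filter on low counts, 1 of the 6 genes was called in LMPP-like cells (Ebf1, log2 fold change 1.35, edgeR adjusted p = 0.00743, in a fit that called 26 genes) and 1 in GMP-like cells (Vpreb3, log2 fold change −2.28, edgeR adjusted p = 0.00275, in a fit that called 30 genes, with 26 of its 51 UMIs in 1 cell of SPF pool 8). Leaving out 1 pool in turn gave 0 to 1 called genes in LMPP-like cells, the 1 being Ebf1 without CVT pool 4, and 0 in every other population. The other alternatives left 92 values and counts on their side of the threshold or within the spread of the pools, and leaving out pools left 222.

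With each cell thinned, the share of B-lineage-like cells with a UMI fell to 92.6% for Cd79a and 81.5% for Cd79b, and the log2 ratio of pools 5 to 8 over pools 1 to 4 outside the class was 1.26 for Igll1, against 0.46 unthinned, and 2.94 for Cd79a, against 2.01. Leaving out pools moved that ratio for Igll1 between 0.31 and 0.86, the highest without CVT pool 4. The difference in B-lineage-like share between CVT and SPF was −0.150 with called doublets removed and −0.194 without the 5% of cells with the highest doublet score, and ran from −0.335 to −0.0248 with 1 pool left out.

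Changes of sign concerned log2 fold changes of CVT over SPF that no fit called. In KL cells, Igll1 was −0.067 with the pool set term and −0.33 without the 5% of cells with the highest doublet score. Outside the class, Cd79b was 0.0047 with RLE size factors, 0.00080 without the filter, 0.0059 with DESeq2 and 0.0087 without the cells with 3 or more of the 5 genes, an alternative added after seeing the data. In GMP-like cells Cd79b was −0.0029 with RLE size factors and −0.0020 with DESeq2. In MEP-like cells Vpreb3 was 0.16 with the pool set term and Ebf1 −0.14 with DESeq2. With 1 pool left out, KL cells gave −0.37 to 0.14 for Vpreb1, −0.44 to 0.36 for Igll1 and −0.87 to 0.18 for Ebf1. Outside the class, the ranges were −0.89 to 0.048 for Cd79a, −0.085 to 0.048 for Cd79b and −0.17 to 0.65 for Ebf1. They were −0.17 to 0.29 for Vpreb1 and −0.030 to 0.10 for Cd79b in LMPP-like cells, −0.068 to 0.10 for Cd79b in GMP-like cells, and −0.53 to 0.53 for Vpreb3 and −0.37 to 0.95 for Ebf1 in MEP-like cells. The causes were not tested. Depth limits the outside levels, since most cells there with a UMI of Vpreb1, Vpreb3, Igll1 or Cd79a had a single UMI.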
